A study of Arabidopsis thaliana with 4 samples.

Results

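Transcripts of wbc19 mutant seedlings were set against those of control seedlings, both grown without kanamycin, to ask what differs between the lines before any antibiotic is given. WBC19, also named ABCG19, is an ATP-binding cassette transporter of the vacuolar membrane, and plants that overexpress it tolerate kanamycin, an aminoglycoside antibiotic that stops bacterial and plastid ribosomes. Members were all entries of the deposited gene table with a mean of at least 20 FPKM (fragments scaled to the length of the transcript and the size of the library) over the 4 libraries of the series. This gave 3702 of 33539 entries, or 11.0%, of which 3624 had a gene identifier and 78 were assembled loci without one.

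Both lines came from the same T-DNA insertion collection, and all seedlings were homozygous and harvested at 5 days. The wbc19 mutant was the line SALK_107731, with its insertion in WBC19, grown on MS medium without kanamycin. The control was the line SALK_064816C, which carries a T-DNA 260 bases before the start codon of TRANSPARENT TESTA 4 (TT4) and grew on the same medium. The other libraries of the series came from the same lines on MS medium with 50 mg/l kanamycin and are used here only for the mean that selects genes and as values beside a result. Per the paper both lines hold the same T-DNA, which carries the bacterial NPTII gene for kanamycin resistance. Each line is a single insertion line, so an effect of the insertion cannot be told apart from other differences between the lines.

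Each condition was sequenced as 1 library of poly(A) RNA, so no difference below has a replicate check and no p-value is given. Differences are given on the log2 scale, wbc19 mutant over control, after 1 was added to each FPKM value, and a gene is called higher or lower when this value is at least 1 in size, that is 2-fold. By this rule 919 entries were higher in the wbc19 mutant and 943 were lower, which is a background of 24.8% higher and 25.5% lower against which every group below is read. The median over all 3702 entries was 0.00, with quartiles of -1.03 and 0.99. Among 3311 nuclear protein-coding genes, 25.7% were higher and 23.6% lower, around a median of 0.03. The limit of 20 FPKM fell among genes of all kinds: just inside it lay PBB1, a proteasome subunit, with 11.2 FPKM in the wbc19 mutant and 50.7 FPKM in the control. Just outside it lay AT5G15910, an NAD(P)-binding protein, with 37.8 FPKM in the wbc19 mutant and 16.8 FPKM in the control.

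The share of calls was largest near the limit. Of 1433 nuclear protein-coding genes with a mean of 20 to 35 FPKM, 31.8% were higher and 27.5% lower in the wbc19 mutant. Of 243 genes with a mean of 200 FPKM and over, 6.58% were higher and 5.76% lower. A value of 20 FPKM at the median transcript length stood for about 33 reads in the wbc19 mutant and 20 reads in the control, as estimated from the smallest steps between FPKM values. The wbc19 mutant library was thus the deeper of the 2, yet 9013 entries lay above 0 in it, against 15072 in the control. In the kanamycin pair the control library was the deeper one. There 20 FPKM stood for about 20 reads in the wbc19 mutant and 39 reads in the control. Entries above 0 numbered 13217 in the wbc19 mutant + kanamycin and 11090 in the control + kanamycin. Per the paper the libraries with more mapped reads also had a lower share of reads that mapped, under library names not tied to conditions. That share was not set against these counts here. The reason was not tested. Among the nuclear protein-coding members, 210 were listed at 0 in the wbc19 mutant and 59 in the control. Of the 210, 23 were at 0 in the wbc19 mutant + kanamycin library as well, and of the 59, 23 were at 0 in the control + kanamycin library. A gene listed at 0 is named as such below, with no fold.

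**Figure D1:**
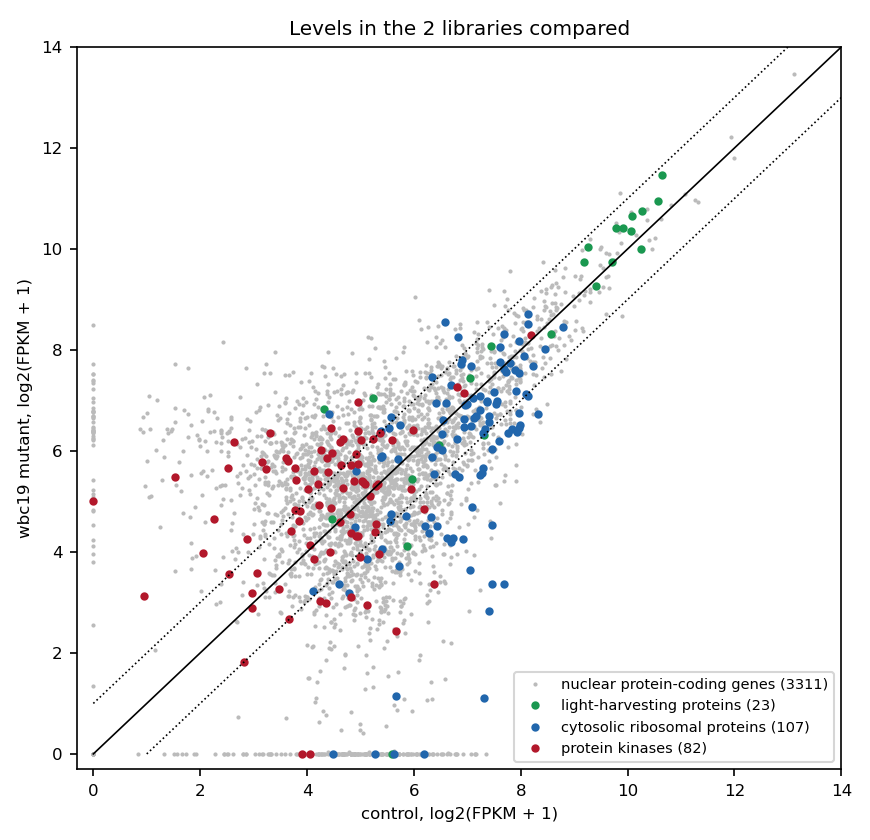
Level of 3311 nuclear protein-coding genes, as log2(FPKM + 1), in the wbc19 mutant library (vertical) and the control library (horizontal), with the line of equal levels solid and 2-fold limits dotted. Light-harvesting genes lie close to the line at high levels, most cytosolic ribosomal protein genes lie below it, and most protein kinase genes lie above it at moderate levels.

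The seedlings of both libraries carried the transcripts of green tissue. All 10 markers of leaf mesophyll, such as the Rubisco small subunits, had a mean of at least 20 FPKM, and their summed level was 30401 FPKM in the wbc19 mutant and 27611 FPKM in the control, with none past 2-fold. Of 15 root markers none reached a mean of 20 FPKM, and 11 were listed at 0 in the wbc19 mutant and 6 in the control. Their summed level was 107 FPKM in the wbc19 mutant and 66.1 FPKM in the control. The 3 guard cell markers were all listed at 0 in the wbc19 mutant and summed to 2.78 FPKM in the control, and the 3 phloem markers summed to 19.3 FPKM in the wbc19 mutant and 44.4 FPKM in the control. In whole seedlings fewer cells of a type and less RNA per cell cannot be told apart.

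The gene that names the mutant was detected in the libraries labelled mutant and not in those labelled control. WBC19 (AT3G55130, chr3:20433839-20436453, minus strand) stood at 3.00 FPKM in the mutant library as labelled and at 2.30 FPKM in the mutant + kanamycin library, and was listed at 0 in both libraries labelled control. These values rest on about 10 and 4 reads, with 95% Poisson intervals of 1.50 to 5.75 FPKM and 0.567 to 5.32 FPKM that cover counting error only. The 0 in the control without kanamycin allows up to 1.53 FPKM by the level of 3 reads, and its interval reaches 1.88 FPKM. The interval of the control with kanamycin reaches 0.966 FPKM. The intervals thus overlap within each pair, but overlap is no test of a difference, and none was run. Where in the gene the reads lie, before or after the insertion, was not analysed here. The neighbouring gene ABCG18, a related transporter, was listed at 0 in the mutant library as labelled and stood at 4.91 FPKM in the control, while ABCG17 was listed at 0 in all 4 libraries. All directions below are those of the libraries as labelled.

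The gene at the other insertion differed between the lines. TT4 (AT5G13930, chr5:4488476-4490264, plus strand) encodes chalcone synthase, which makes the first flavonoid of the pathway. It stood at 215.1 FPKM in the wbc19 mutant and 86.3 FPKM in the control, a log2 difference of 1.31. With kanamycin it stood at 189.8 FPKM in the wbc19 mutant and 80.8 FPKM in the control. Both wbc19 mutant libraries were above both control libraries, and the intervals for counting error were 195 to 236 FPKM in the wbc19 mutant and 70.3 to 104 FPKM in the control. In the RefSeq annotation of TAIR10.1 the start codon of TT4 lies 286 bases after the transcription start site, so a T-DNA 260 bases before the codon lies 26 bases inside the 5′ untranslated region. The 30 bases around that position are printed to show where the control line is interrupted, with capitals from the stated position of the insertion onward (chr5:4488487-4488516, plus strand), and the 250 bases before the start site with the G-box CACGTG, searched on both strands, in capitals (chr5:4488226-4488475, plus strand).
TT4 insertion: ataaatcaatcaaaaGATTTAAAACCCACC
TT4 promoter: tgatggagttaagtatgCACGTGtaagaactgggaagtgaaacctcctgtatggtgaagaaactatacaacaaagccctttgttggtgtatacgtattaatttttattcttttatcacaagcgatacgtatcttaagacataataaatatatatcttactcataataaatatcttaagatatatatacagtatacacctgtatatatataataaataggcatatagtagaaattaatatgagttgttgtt
The G-box occurred in 6.57% of all 26548 promoters of this length. Whether the insertion lowers TT4 in the control was not tested.

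Flavonoid genes downstream of TT4 went both ways. Of 10 pathway genes, 5 had a mean of at least 20 FPKM, of which TT4 and FLS1 were higher and F3H lower in the wbc19 mutant. FLS1, flavonol synthase, stood at 59.8 FPKM in the wbc19 mutant and 20.7 FPKM in the control, and with kanamycin at 28.6 FPKM in the wbc19 mutant and 4.64 FPKM in the control. F3H, the flavanone hydroxylase before it, stood at 13.8 FPKM in the wbc19 mutant and 42.7 FPKM in the control, and in the kanamycin pair it lay the other way, at 22.4 FPKM in the wbc19 mutant and 5.08 FPKM in the control. The entry enzymes PAL1 and C4H, which turn phenylalanine into coumarate, were within 2-fold, with C4H at 52.9 FPKM in the wbc19 mutant and 51.5 FPKM in the control. TT5, chalcone isomerase, was listed at 0 in the wbc19 mutant and stood at 19.0 FPKM in the control.

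Genes were then grouped by the words of their descriptions. The 54 groups held 2064 members, with a gene in several groups where its description said so, and 1638 members were in none. Of 50 groups with at least 10 members, 18 had a median at least 0.4 away from that of all members. A member passes the limit if it is high in any library, so a group's count describes the members that passed and not the whole family.

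**Figure D2:**
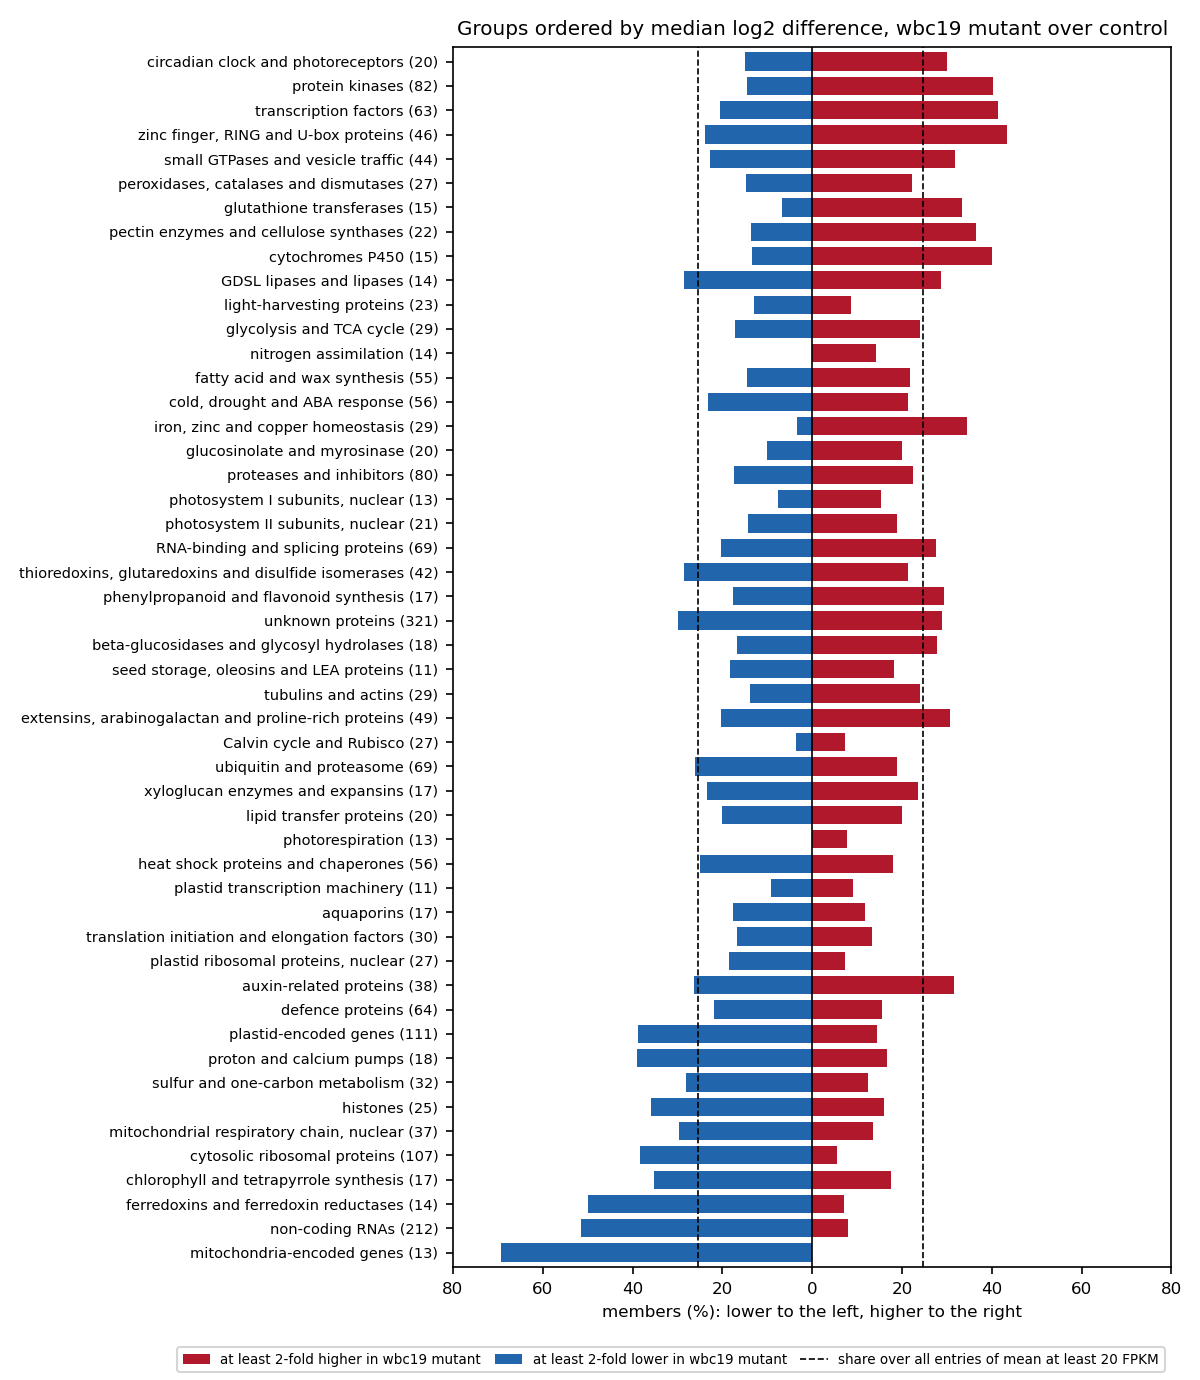
Share of each group's members at least 2-fold higher (red, to the right) and at least 2-fold lower (blue, to the left) in the wbc19 mutant than in the control, for 50 groups ordered by median, with the number of members in brackets and the shares over all 3702 entries dashed. Regulators such as transcription factors (41.3% higher) lie at the top, while cytosolic ribosomal proteins (38.3% lower) and non-coding RNAs (51.4% lower) lie near the bottom.

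Transcripts of the cytosolic ribosome were more often lower than higher in the wbc19 mutant. Of 154 entries described as such, 107 were members, and 6 of these were higher and 41 lower, or 38.3% lower beside 25.5% of all members. Their median was -0.56, and their summed level was 10958 FPKM in the wbc19 mutant and 14823 FPKM in the control. The subunits were alike in this: of 39 small subunit genes 1 was higher and 16 lower, around a median of -0.51, and of 45 large subunit genes 4 were higher and 16 lower, around a median of -0.56. Of the 107, 4 were listed at 0 in the wbc19 mutant and none in the control, and the median without these was -0.54. In the kanamycin pair, where 20.7% of all members were higher and 28.4% lower, 18 of the 107 were higher and 20 lower, around a median of -0.13.

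The most abundant ribosomal protein genes were within 2-fold. AT5G02960, a small subunit protein of the S12/S23 family, stood at 350.9 FPKM in the wbc19 mutant and 442.9 FPKM in the control. The large subunit gene emb2171, named for its embryo-defective mutant, stood at 364 FPKM in the wbc19 mutant and 279.5 FPKM in the control. UBQ5, a fusion of ubiquitin with a ribosomal protein, stood at 419 FPKM in the wbc19 mutant and 280.5 FPKM in the control. None of these reached 2-fold. The next 3 genes had the largest differences in FPKM among those that were lower. One was AT4G33865 of the S14p/S29e family (chr4:16233045-16234273, minus strand), at 104.6 FPKM in the wbc19 mutant and 318 FPKM in the control. AT5G61170 of the S19e family (chr5:24611032-24612564, plus strand) stood at 9.32 FPKM in the wbc19 mutant and 204 FPKM in the control, a log2 difference of -4.31, and RPL16B, a large subunit gene, at 9.33 FPKM in the wbc19 mutant and 174.7 FPKM in the control. With kanamycin AT4G33865 and AT5G61170 were within 2-fold, at 236 and 90.3 FPKM in the wbc19 mutant and 225 and 67.8 FPKM in the control. The 3 genes furthest in the other direction were AT2G36170, a ubiquitin and L40e fusion (374.5 FPKM in the wbc19 mutant and 94.7 FPKM in the control), AT4G31985 of the L39 family (306 FPKM in the wbc19 mutant and 112.6 FPKM in the control) and AT4G00810, an acidic protein of the large subunit (175.6 FPKM in the wbc19 mutant and 79.7 FPKM in the control). Many of these genes have near-identical copies that can share reads of this length, so values of single genes are uncertain.

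Ribosomal protein promoters share a short element. Site II, with the letters TGGGCC or TGGGCT on either strand, is bound by TCP transcription factors and is common in promoters of genes for ribosomes and cell growth. It lay within the 250 bases before the start site in 71.0% of the 107 promoters, in 27.8% of 3304 promoters of the nuclear protein-coding members that matched, and in 19.4% of all 26548. The telo box, AAACCCTAA on either strand, lay in 10.3% of the 107 and in 2.59% of all. Within the ribosomal genes site II was present in 31 of 41 that were lower in the wbc19 mutant (75.6%) and in 42 of 60 that were within 2-fold. The 150 bases before the start site are shown for the 3 genes named above as lower and for the 2 most abundant ones, from RefSeq (TAIR10.1), with site II in capitals, at chr4:16234274-16234423 (minus strand), chr5:24610882-24611031 (plus strand), chr4:10302013-10302162 (plus strand), chr3:1167100-1167249 (plus strand) and chr5:694516-694665 (minus strand), in the order printed.
AT4G33865: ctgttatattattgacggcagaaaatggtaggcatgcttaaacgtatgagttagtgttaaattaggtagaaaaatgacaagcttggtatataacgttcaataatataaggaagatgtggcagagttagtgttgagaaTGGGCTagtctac
AT5G61170: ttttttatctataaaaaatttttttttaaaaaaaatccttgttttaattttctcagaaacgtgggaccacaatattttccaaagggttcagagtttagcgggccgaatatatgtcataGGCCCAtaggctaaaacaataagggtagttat
RPL16B: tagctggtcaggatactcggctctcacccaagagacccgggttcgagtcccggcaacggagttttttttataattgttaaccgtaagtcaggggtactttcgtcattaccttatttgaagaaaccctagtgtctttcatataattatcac
emb2171: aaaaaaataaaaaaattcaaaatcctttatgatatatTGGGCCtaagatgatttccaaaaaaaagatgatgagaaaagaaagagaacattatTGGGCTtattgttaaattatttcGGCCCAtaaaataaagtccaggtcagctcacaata
AT5G02960: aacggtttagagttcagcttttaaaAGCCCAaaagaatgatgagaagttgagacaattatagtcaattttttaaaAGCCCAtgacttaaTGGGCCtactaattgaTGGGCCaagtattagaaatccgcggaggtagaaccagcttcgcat
The abundant pair held 3 and 4 matches, AT4G33865 and AT5G61170 held 1 each, and RPL16B held none in this window. A match is a run of letters and was not tested as a binding site.

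The length of the transcript moved with the difference between these libraries. Nuclear protein-coding members under 750 bases had a median of -0.31, those of 750 to 1000 bases -0.39, and those of 2000 bases and over 0.29. In the kanamycin pair the medians of the 5 length classes lay from -0.27 to -0.18, with no such order. Classes of GC content showed no order in the pair without kanamycin, with medians from -0.02 to 0.06. Ribosomal protein transcripts are short, at a median of 927 bases. When each gene was set against the median of its own length class, 9 of the 107 were higher and 35 lower, around a median of -0.42.

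**Figure D3:**
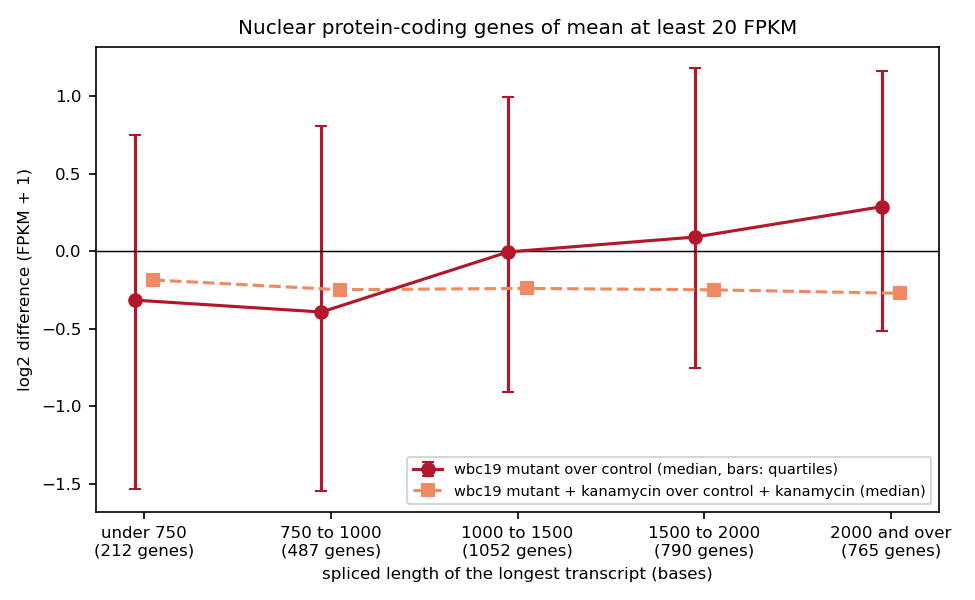
Median log2 difference of nuclear protein-coding members in 5 classes of spliced transcript length, wbc19 mutant over control, with bars for the quartiles, and the medians of the kanamycin pair as squares. Without kanamycin the medians lie lowest, at -0.39, for 750 to 1000 bases and highest, at 0.29, for 2000 bases and over, while the kanamycin pair stays between -0.27 and -0.18.

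Nuclear genes for the plastid ribosome, which kanamycin can bind, were mostly within 2-fold. Of 27 members 2 were higher and 5 lower in the wbc19 mutant, or 7.41% and 18.5%, beside 24.8% and 25.5% of all members. Lower genes were thus no more frequent than in the background, although the median was -0.30. The kanamycin pair had 3 higher and 4 lower. EMB3137, a small subunit protein of the S13/S18 family, stood at 112.4 FPKM in the wbc19 mutant and 310.9 FPKM in the control. PSRP3/1, a plastid-specific ribosomal protein, stood at 78.7 FPKM in the wbc19 mutant and 218 FPKM in the control. The opposite was seen for AT2G24090, the L35 protein, at 467 FPKM in the wbc19 mutant and 207.6 FPKM in the control. Among 30 translation factors 4 were higher and 5 lower. Cap-binding EIF4E stood at 80.5 FPKM in the wbc19 mutant and 20.8 FPKM in the control, and FUG1, a plastid initiation factor, at 167 FPKM in the wbc19 mutant and 64.2 FPKM in the control. Elongation factors of the cytosol lay the other way, with AT1G07940 at 60.2 FPKM in the wbc19 mutant and 157.9 FPKM in the control, though its near-identical copy AT5G60390 was within 2-fold, at 373 FPKM in the wbc19 mutant and 458.6 FPKM in the control.

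Most genes of the photosynthetic apparatus were within 2-fold. Of 23 light-harvesting genes 2 were higher and 3 lower, around a median of 0.38, and their summed level was 17806 FPKM in the wbc19 mutant and 13430 FPKM in the control. LHB1B2, a major antenna protein of photosystem II, stood at 2826 FPKM in the wbc19 mutant and 1602 FPKM in the control, and LHCA3 of photosystem I at 1722 FPKM in the wbc19 mutant and 1227 FPKM in the control. The genes past 2-fold were minor ones. LHCA6, a linker between photosystem I and the NDH complex, stood at 131.5 FPKM in the wbc19 mutant and 36.4 FPKM in the control, and with kanamycin at 69.5 FPKM in the wbc19 mutant and 13.4 FPKM in the control. NYC1, a chlorophyll b reductase matched by its words and not an antenna protein, stood at 113 FPKM in the wbc19 mutant and 18.8 FPKM in the control. LHCB4.3 stood at 16.3 FPKM in the wbc19 mutant and 57.8 FPKM in the control, and AT2G21970 (SEP2), a stress-enhanced relative of the antenna, was listed at 0 in the wbc19 mutant and stood at 47.0 FPKM in the control. Reads are shared within the LHCB1 family, so these single values are uncertain.

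Subunits of both photosystems were mostly within 2-fold as well. Among 13 photosystem I genes PSAF, which docks plastocyanin, stood at 1701 FPKM in the wbc19 mutant and 1069 FPKM in the control, within 2-fold. PSAK, a subunit at the antenna side, was lower in the wbc19 mutant, at 407 FPKM, against 947 FPKM in the control. PSAT, a phosphoserine aminotransferase of serine synthesis that shares only its name with the photosystem, stood at 102.5 FPKM in the wbc19 mutant and 16.1 FPKM in the control. Of 21 genes matched to photosystem II, 4 were higher and 3 lower, around a median of 0.10, and core members such as PSBR (1860 FPKM in the wbc19 mutant and 1803 FPKM in the control) and PSBO1 (1550 FPKM in the wbc19 mutant and 1584 FPKM in the control) were nearly equal. The 7 past 2-fold were not core subunits. Among them the PsbP-family protein AT3G05410 stood at 128 FPKM in the wbc19 mutant and 1.29 FPKM in the control, PPL1, a PsbP-like protein, at 26.0 FPKM in the wbc19 mutant and 91.0 FPKM in the control, and SIGC, a sigma factor of plastid transcription, at 82.3 FPKM in the wbc19 mutant and 3.54 FPKM in the control. PPL1 also differed with kanamycin, at 33.6 FPKM in the wbc19 mutant and 80.1 FPKM in the control.

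Carbon fixation and photorespiration had few calls. Of 27 Calvin cycle and Rubisco genes 2 were higher and 1 lower, and of 13 photorespiration genes 1 was higher and none lower, beside 24.8% and 25.5% of all members. RBCS1A, the leading small subunit of Rubisco, stood at 11376 FPKM in the wbc19 mutant and 8813 FPKM in the control. RBCS3B, a near-identical relative, stood at 3566 FPKM in the wbc19 mutant and 4050 FPKM in the control. The 2 higher genes were PGK, a cytosolic phosphoglycerate kinase counted in both groups (208.8 FPKM in the wbc19 mutant and 87.7 FPKM in the control), and RbcX2, a chaperone of Rubisco assembly (61.4 FPKM in the wbc19 mutant and 12.97 FPKM in the control). The leading genes of these groups are among the most abundant, where calls were few in either direction, as given above.

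Chlorophyll synthesis was mixed. Of 17 genes 3 were higher and 6 lower, around a median of -0.61, or -0.18 without the 2 listed at 0 in the wbc19 mutant. Of the steps that lead to chlorophyll, GUN5, the large subunit of magnesium chelatase, was within 2-fold, at 343 FPKM in the wbc19 mutant and 204 FPKM in the control. CHLM, the methyltransferase after it, was higher, at 142.7 FPKM in the wbc19 mutant and 26.3 FPKM in the control. CHLM with kanamycin stood at 184 FPKM in the wbc19 mutant and 93.9 FPKM in the control, less than 2-fold apart on this scale. PORB, the light-dependent reductase of protochlorophyllide, stood at 62.1 FPKM in the wbc19 mutant and 175 FPKM in the control. FLU, a negative regulator of the pathway, was listed at 0 in the wbc19 mutant and stood at 54.6 FPKM in the control. On the haem branch a ferrochelatase, AT2G30390, stood at 140.3 FPKM in the wbc19 mutant and 17.4 FPKM in the control. With a limit of 50 FPKM the median of this group turned to 0.58 relative to all members.

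Ferredoxins, the soluble iron-sulfur carriers that take electrons from photosystem I, had the lowest median of any group of nuclear protein-coding genes with at least 10 members. Of 14 ferredoxin and ferredoxin reductase genes 1 was higher and 7 lower in the wbc19 mutant, with a median of -0.92, while the kanamycin pair had 3 higher and 2 lower and a median of 0.51. FED A, the major leaf ferredoxin, was not among the lower ones, at 1008 FPKM in the wbc19 mutant and 567 FPKM in the control. FD1, the minor leaf form, stood at 190.9 FPKM in the wbc19 mutant and 433 FPKM in the control. FD3, a form of non-green tissue, stood at 1.11 FPKM in the wbc19 mutant and 75.02 FPKM in the control, and with kanamycin at 18.2 FPKM in the wbc19 mutant and 55.8 FPKM in the control. The ferredoxin-like FdC1 was listed at 0 in the wbc19 mutant and stood at 111 FPKM in the control. The only member higher in the wbc19 mutant was FAD6, a plastid fatty acid desaturase that draws on ferredoxin, at 292.7 FPKM in the wbc19 mutant and 91.1 FPKM in the control. With a limit of 50 FPKM the median of the group turned to 0.62 relative to all members.

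Plastid-encoded genes were lower more often than the background, and organelle RNA is largely without long poly(A) tails while the libraries were made from poly(A) RNA. The part of that selection was not tested. Of 111 members 16 were higher and 43 lower, around a median of -0.40. Of the 111, 27 were listed at 0 in the wbc19 mutant and 3 in the control, and of the 82 above 0 in both 14 were higher and 17 lower, around a median of -0.19. Transfer RNAs took a large part in this, with 3 of 25 higher and 17 lower, while 8 ribosomal RNA entries had no call and summed to 135324 FPKM in the wbc19 mutant and 155801 FPKM in the control. Of 78 protein-coding plastid genes 13 were higher and 26 lower, and of the 64 above 0 in both libraries 13 were higher and 12 lower, around a median of 0.09. The ribosomal protein genes RPL14 (1371 FPKM in the wbc19 mutant and 513.6 FPKM in the control) and RPL36 (1181 FPKM in the wbc19 mutant and 155.7 FPKM in the control), both for the large subunit of the plastid ribosome, were among the largest differences of the whole comparison. With kanamycin RPL14 lay the other way, at 163 FPKM in the wbc19 mutant and 435.5 FPKM in the control. PSBJ, a small photosystem II subunit, stood at 810 FPKM in the wbc19 mutant and 173 FPKM in the control. Of 16 plastid photosystem II genes 1 was higher and 7 lower, and of 6 photosystem I genes 2 were lower. RBCL, the large subunit of Rubisco, was nearly equal, at 1480 FPKM in the wbc19 mutant and 1530 FPKM in the control.

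Mitochondria-encoded genes and entries of non-coding RNA were more often lower as well. Of 13 mitochondria-encoded members none was higher and 9 were lower, 6 of them listed at 0 in the wbc19 mutant, while the 3 most abundant, RRN18, ORF107A and RRN26, were within 2-fold. Of 212 non-coding RNAs 17 were higher and 109 lower, with 114 listed at 0 in the wbc19 mutant and 32 in the control. The 212 include the plastid transfer and ribosomal RNAs counted above. Not all kinds were lower: of 15 ribosomal RNA entries none was higher and 1 lower. Of 32 entries typed as other RNA 10 were higher and 11 lower. Transfer RNA entries made up 131 of the 212, with 3 higher and 77 lower. They summed to 5950 FPKM in the wbc19 mutant and 21310 FPKM in the control. With kanamycin they summed to 21273 FPKM in the wbc19 mutant and 10478 FPKM in the control. Those with a known length had a median of 72 bases, and values scaled by so short a length are uncertain. In the kanamycin pair the non-coding RNAs lay the other way, with 105 higher and 41 lower. The deeper library of that pair was the control, and the part of depth was not tested. Copies with the same sequence share their reads, and 75 of the 212 had all 4 values in common with another entry, in 20 sets, so the counts are of entries and not of independent measurements. The threonine tRNA genes AT4G03285, AT1G05980, AT5G63145 and AT4G11405, for example, were all listed at 0 in the wbc19 mutant and at 732 FPKM in the control.

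Nuclear genes for the mitochondrial respiratory chain had 5 of 37 higher and 11 lower, or 13.5% and 29.7%, and a median of -0.53. Over all members 24.8% were higher and 25.5% lower, so the share of lower genes was near the background. Against the median of their length class 5 were higher and 10 lower, around a median of -0.30. The kanamycin pair had 13 higher and 8 lower. Succinate dehydrogenase, complex II, went both ways. Its subunits SDH5 (19.6 FPKM in the wbc19 mutant and 89.9 FPKM in the control) and SDH6 (9.76 FPKM in the wbc19 mutant and 93.3 FPKM in the control) were lower, and SDH4 (109 FPKM in the wbc19 mutant and 48.1 FPKM in the control) was higher. AT3G52730, a small subunit of the cytochrome b-c1 complex, stood at 76.7 FPKM in the wbc19 mutant and 190 FPKM in the control. The ATP synthase epsilon chain AT1G51650 stood at 301 FPKM in the wbc19 mutant and 35.5 FPKM in the control.

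Regulators leaned towards the wbc19 mutant. Protein kinases, transcription factors and proteins with zinc finger, RING or U-box words, which bind nucleic acids or tag proteins with ubiquitin, all had medians above that of all members. Of 82 genes matched as protein kinases 33 were higher and 12 lower, or 40.2% and 14.6%, and the median was 0.62. Of 63 matched as transcription factors 26 were higher and 13 lower, or 41.3% and 20.6%, and the median was 0.60. Of 46 zinc finger, RING and U-box genes 20 were higher and 11 lower, around a median of 0.54. These members are few of many: 1179, 1157 and 912 entries of the table matched the words. With a limit of 10 FPKM the medians relative to all members were 0.08 for kinases, 0.10 for transcription factors and 0.44 for zinc finger genes, so kinases and transcription factors were near all members once less abundant genes were included. With a limit of 50 FPKM the relative medians were 0.47 for the 9 kinases and 0.78 for the 19 transcription factors left. Against the median of their own length class, the kinases, at a median of 2130 bases, had 27 higher and 14 lower and a median of 0.44, and the transcription factors had 25 higher and 14 lower and a median of 0.39.

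These regulators did not lean to the wbc19 mutant in the kanamycin pair, where 20.7% of all members were higher and 28.4% lower. The deeper library of that pair was the control, as given above, and the part of depth was not tested. Kinases summed to 3503 FPKM in the wbc19 mutant and 2345 FPKM in the control, and with kanamycin to 2267 and 3460 FPKM. In the same order, transcription factors summed to 4196, 2351, 2601 and 2974 FPKM, and zinc finger genes to 2213, 1395, 1368 and 1908 FPKM. In the kanamycin pair 17 of the 82 kinases were higher and 30 lower, around a median of -0.51. Of the 63 transcription factors 13 were higher and 16 lower, close to the shares of all members, around a median of -0.29. The zinc finger genes had 9 higher and 18 lower around a median of -0.35, beside a median of -0.19 for all members in that pair. MPK3, a stress-activated MAP kinase (chr3:16756571-16758874, plus strand), shows this for a single gene. It stood at 123.5 FPKM in the wbc19 mutant and 29.8 FPKM in the control, and with kanamycin at 20.9 FPKM in the wbc19 mutant and 138.9 FPKM in the control.

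**Figure D4:**
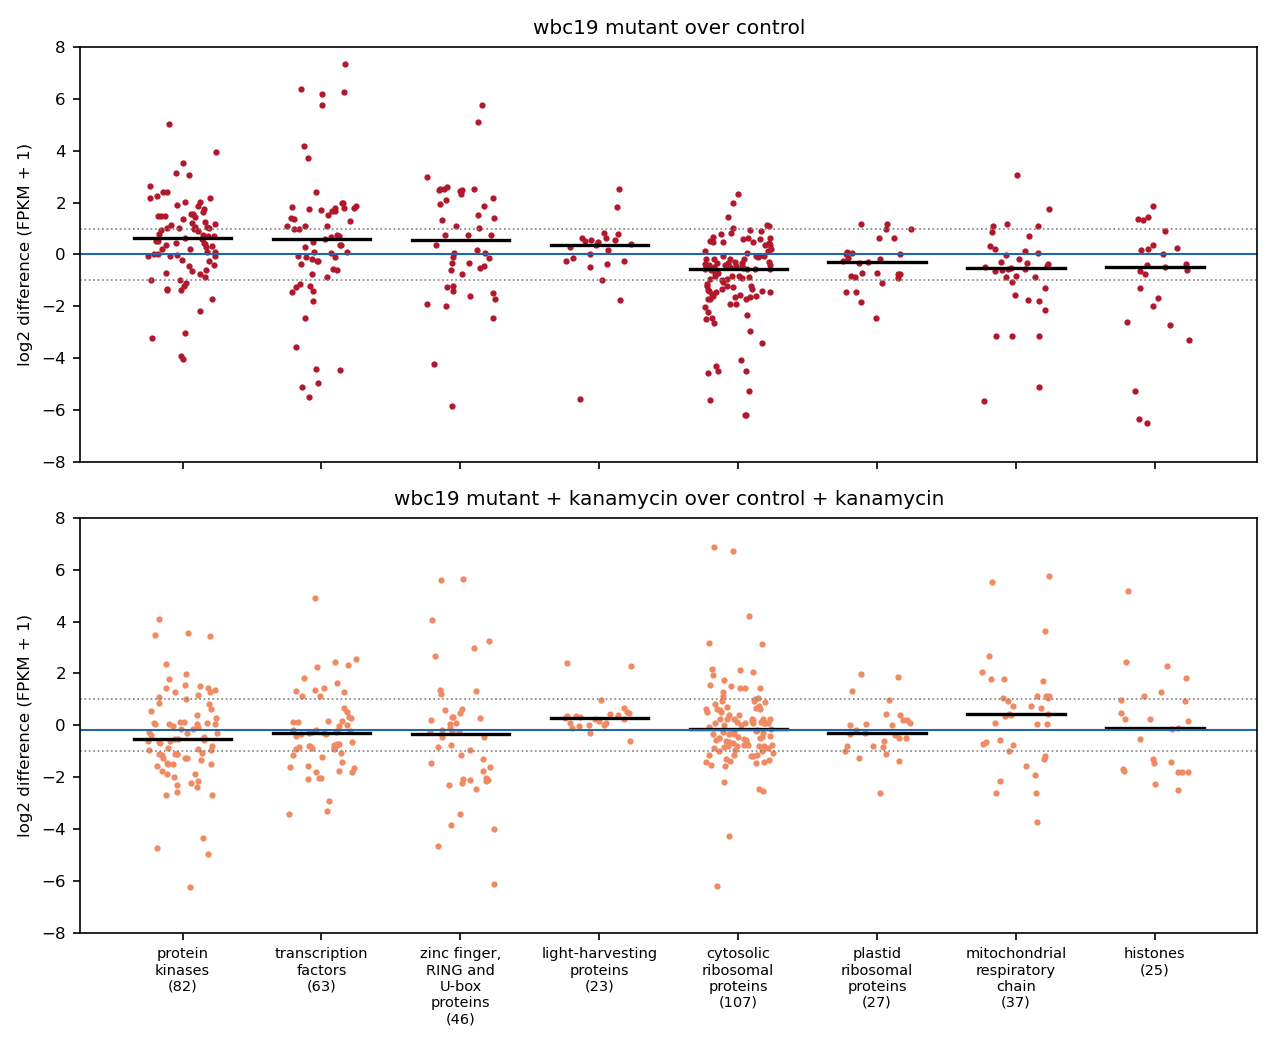
Log2 difference of each member of 8 groups, wbc19 mutant over control without kanamycin (upper panel) and with kanamycin (lower panel), with group medians as black bars, the median of all members as a blue line and 2-fold limits dotted. In the upper panel kinases (0.62) and transcription factors (0.60) lie above the line and cytosolic ribosomal proteins (-0.56) below it, while in the lower panel their medians are -0.51, -0.29 and -0.13.

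Single regulators spanned wide ranges. Among kinases the calcium-dependent CPK9 stood at 81.4 FPKM in the wbc19 mutant and 8.86 FPKM in the control, and its relative AT5G24430 at 71.8 FPKM in the wbc19 mutant and 5.24 FPKM in the control. BIN2, a GSK3-type kinase that restrains brassinosteroid signalling, was lower, at 27.9 FPKM in the wbc19 mutant and 71.5 FPKM in the control. The other pair of lower genes named, RACK1B (9.24 FPKM in the wbc19 mutant and 82.3 FPKM in the control) and RACK1C (4.40 FPKM in the wbc19 mutant and 49.5 FPKM in the control), are scaffolds on the small ribosomal subunit and not kinases. SKP1, a ubiquitin ligase subunit, was also matched by its words and was within 2-fold.

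Among transcription factors ZAT7, a stress-related zinc finger repressor, stood at 211 FPKM in the wbc19 mutant and 1.88 FPKM in the control, and with kanamycin at 13.4 FPKM in the wbc19 mutant and 41.6 FPKM in the control. COL4, a CONSTANS-like protein, stood at 160.2 FPKM in the wbc19 mutant and 45.7 FPKM in the control. AT3G60490, of the DREB family, stood at 162 FPKM in the wbc19 mutant and was listed at 0 in the control. On the lower side the homeodomain-like AT1G19000 was listed at 0 in the wbc19 mutant and stood at 44.2 FPKM in the control, and AT2G30620, a winged-helix protein, stood at 48.8 FPKM in the wbc19 mutant and 108 FPKM in the control. The most abundant gene in the group, NIA2, is nitrate reductase and no transcription factor, and was within 2-fold. In the zinc finger group SZF1, induced by salt, stood at 163.8 FPKM in the wbc19 mutant and 29.2 FPKM in the control, and the B-box protein AT1G68190 at 107.5 FPKM in the wbc19 mutant and 1.004 FPKM in the control. RHA1B, a RING-finger protein, was listed at 0 in the wbc19 mutant and stood at 56.5 FPKM in the control.

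Clock and light-sensing genes were fewer, with 6 of 20 higher, 3 lower and a median of 0.72. These were 30% and 15%, beside 24.8% and 25.5% of all members. With kanamycin 3 of the 20 were higher and 2 lower, around a median of -0.32, beside -0.19 for all members. Only 1 gene was higher in both pairs. RVE2, a MYB factor of the clock, stood at 154 FPKM in the wbc19 mutant and 38.5 FPKM in the control, and with kanamycin at 97.2 FPKM in the wbc19 mutant and 30.8 FPKM in the control. CCL, a clock-controlled transcript, stood at 326 FPKM in the wbc19 mutant and 138 FPKM in the control, and with kanamycin at 134.5 FPKM in the wbc19 mutant and 273.6 FPKM in the control. The cryptochromes, which are blue-light receptors, were lower: CRY1 stood at 7.45 FPKM in the wbc19 mutant and 31.2 FPKM in the control, and CRY2 at 10.4 FPKM in the wbc19 mutant and 37.4 FPKM in the control. With kanamycin CRY1 was within 2-fold and CRY2 lay the other way, at 59.3 FPKM in the wbc19 mutant and 8.17 FPKM in the control. The hour of harvest is not given in the sources used here.

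Hormone genes had calls in both directions. Of 38 auxin-related genes 12 were higher and 10 lower, around a median of -0.30, and with a limit of 10 FPKM 16 of 72 were higher and 29 lower, around a median of -0.56 relative to all members. IAA9, a repressor of auxin response, stood at 246.8 FPKM in the wbc19 mutant and 54.9 FPKM in the control, and AT2G33830, a dormancy and auxin associated protein, at 266 FPKM in the wbc19 mutant and 55.4 FPKM in the control. The growth-related SAUR75 stood at 165 FPKM in the wbc19 mutant and was listed at 0 in the control. Of 56 genes described by cold, drought or abscisic acid 12 were higher and 13 lower. PYL5, an abscisic acid receptor, stood at 138.9 FPKM in the wbc19 mutant and 23.8 FPKM in the control, and FIB, a plastid lipid-associated fibrillin, at 99.8 FPKM in the wbc19 mutant and 10.3 FPKM in the control.

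Metal content is a subject of the study, and the iron, zinc and copper group had 10 of 29 members higher and 1 lower. These were 34.5% and 3.45%, beside 24.8% and 25.5% of all members, and the group median was 0.16. Against the median of the length class it was 0.02. With a limit of 10 FPKM, 14 of 48 were higher and 9 lower. In the kanamycin pair 3 of the 29 were higher and 6 lower, around a median of -0.08. Of the 10 higher without kanamycin, 1 was higher there too and 4 were lower. Metallothioneins, small cysteine-rich proteins that bind copper and zinc, gave the largest values. MT1A (AT1G07600, chr1:2338904-2339321, minus strand) had the largest difference in FPKM of all genes called higher, at 2216 FPKM in the wbc19 mutant and 922 FPKM in the control, with 1065 FPKM in the wbc19 mutant + kanamycin and 1358 FPKM in the control + kanamycin. MT1B stood at 754 FPKM in the wbc19 mutant and 223 FPKM in the control, and with kanamycin at 367 FPKM in the wbc19 mutant and 505 FPKM in the control. MT2B did not share this, at 1020 FPKM in the wbc19 mutant and 1411 FPKM in the control. The zinc uptake transporter ZIP1 (chr3:4051651-4053201, minus strand) stood at 100.7 FPKM in the wbc19 mutant and 0.913 FPKM in the control, and with kanamycin it was listed at 0 in the wbc19 mutant and stood at 15.7 FPKM in the control. NAS1, which makes the metal chelator nicotianamine, was the only lower member, listed at 0 in the wbc19 mutant and at 48.9 FPKM in the control. In the kanamycin pair MT1A and MT1B were thus within 2-fold, and ZIP1 was lower in the wbc19 mutant. Copies of metallothionein genes can share reads, so the split among them is uncertain. Per the paper ZIP1 transcripts overlap those of the gene ALIS1, and whether the ZIP1 values include reads of ALIS1 was not checked here.

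The wider zinc and iron transporter families were near or below the depth of these libraries. Of 17 transporters only ZIP1 had a mean of at least 20 FPKM, 13 were listed at 0 in the wbc19 mutant and 9 in the control, and 6 were listed at 0 in all 4 libraries. ZIP2 stood at 23.8 FPKM in the wbc19 mutant and 3.36 FPKM in the control, and the vacuolar zinc transporter MTP1, named ZAT in the table, at 30.7 FPKM in the wbc19 mutant and 12.1 FPKM in the control. The root iron transporter IRT1 was listed at 0 in the wbc19 mutant and stood at 11.1 FPKM in the control. Of 14 genes that the study names for this comparison 10 had a mean of at least 20 FPKM, and 8 of these were higher and 2 lower. These genes were chosen by the study on these same libraries, so their count is no independent evidence of a direction.

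**Figure D5:**
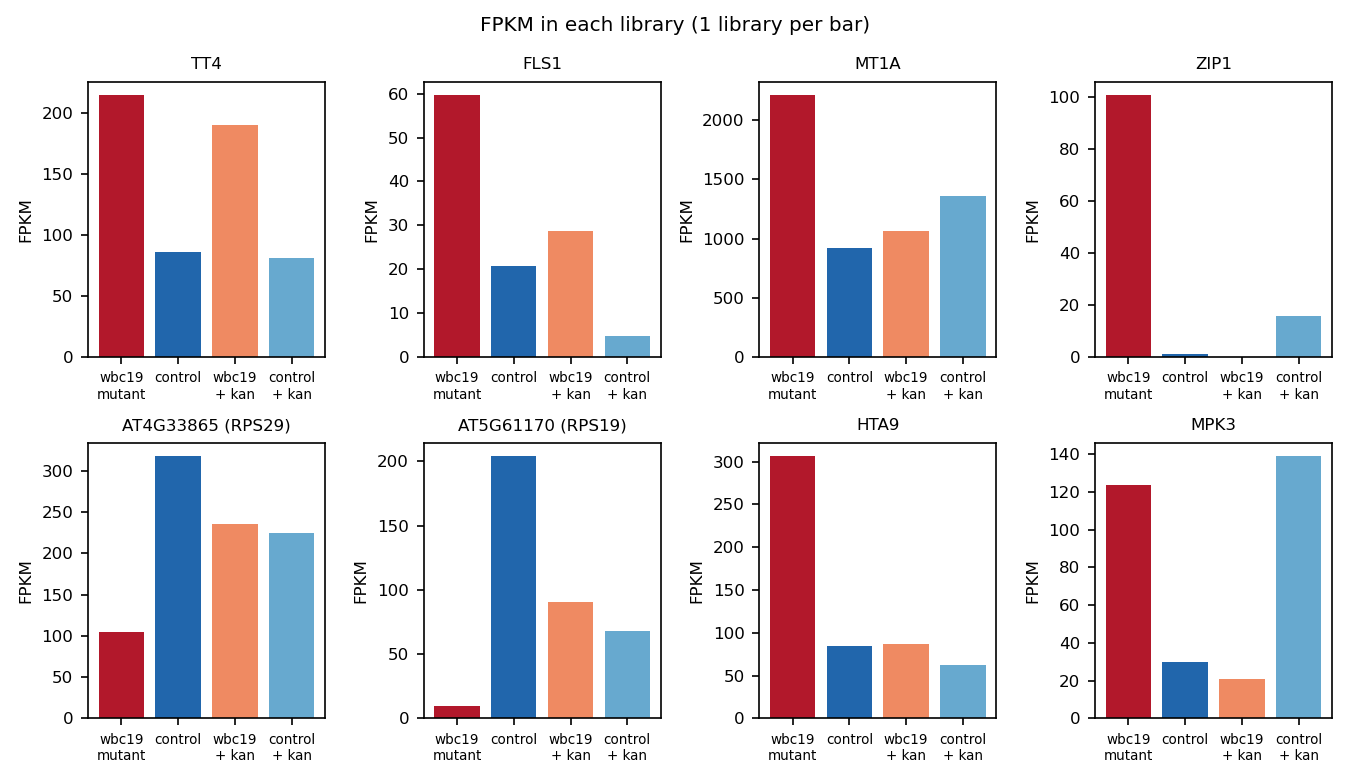
FPKM of 8 genes in the 4 libraries, 1 bar per library, wbc19 mutant left of control without and then with kanamycin, with axes from 0. TT4 and FLS1 are higher in both wbc19 mutant libraries, ZIP1 and MPK3 are higher in the wbc19 mutant without kanamycin and lower with it, and MT1A is higher without kanamycin and within 2-fold with it.

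Protein turnover and folding stayed near the background. Of 69 ubiquitin and proteasome genes 13 were higher and 18 lower, of 80 proteases and inhibitors 18 were higher and 14 lower, and of 56 heat shock proteins and chaperones 10 were higher and 14 lower. PAF1, a subunit of the proteasome core, stood at 211.5 FPKM in the wbc19 mutant and 8.45 FPKM in the control, and UBC5, a ubiquitin-conjugating enzyme, at 205 FPKM in the wbc19 mutant and 18.5 FPKM in the control. UBQ1, a ubiquitin and ribosomal protein fusion, lay the other way, at 93.7 FPKM in the wbc19 mutant and 326 FPKM in the control. Among the plastid proteases DEG5, which cleaves damaged photosystem II, stood at 124 FPKM in the wbc19 mutant and 20.1 FPKM in the control, while VAR2, an FtsH protease of the same repair, was nearly equal at 191 FPKM in the wbc19 mutant and 199 FPKM in the control. Organelle chaperonins were lower: CPN60BETA2 of the plastid stood at 31.5 FPKM in the wbc19 mutant and 125 FPKM in the control, and CPN10 of the mitochondrion at 24.5 FPKM in the wbc19 mutant and 85.7 FPKM in the control. The plastid co-chaperonin CPN20 was not, at 573 FPKM in the wbc19 mutant and 331 FPKM in the control.

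Redox and detoxification enzymes had members on both sides. Of 27 peroxidases, catalases and dismutases 6 were higher and 4 lower, around a median of 0.46, and the abundant iron superoxide dismutase FSD1, which removes superoxide in plastids, was within 2-fold at 607 FPKM in the wbc19 mutant and 415.5 FPKM in the control. Of 15 glutathione transferases 5 were higher and 1 lower. GSTU19, of the tau class, stood at 347.7 FPKM in the wbc19 mutant and 169 FPKM in the control, just past 2-fold, and GSTF8, of the phi class, stood at 149 FPKM in the wbc19 mutant and was listed at 0 in the control. GSTU20 was the lower member, at 69.0 FPKM in the wbc19 mutant and 240.7 FPKM in the control. The median of this group, 0.43, turned to -0.046 relative to all members with a limit of 10 FPKM. Of 42 thioredoxins and relatives 9 were higher and 12 lower, among them NTRA, an NADPH-thioredoxin reductase, at 145.5 FPKM in the wbc19 mutant and 22.5 FPKM in the control.

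Cell wall and secretion genes had members far apart in both directions. XTH14, which cuts and rejoins xyloglucan, stood at 186 FPKM in the wbc19 mutant and 8.90 FPKM in the control, whereas the expansin EXPA1, which loosens walls, stood at 25.9 FPKM in the wbc19 mutant and 102 FPKM in the control. The arabinogalactan protein gene AGP2 stood at 184.5 FPKM in the wbc19 mutant and 29.1 FPKM in the control, and AGP12 was listed at 0 in the wbc19 mutant and stood at 109.5 FPKM in the control. Of 17 xyloglucan enzymes and expansins 4 were higher and 4 lower, and of 49 extensins and arabinogalactan proteins 15 were higher and 10 lower. Small GTPases and vesicle traffic had 14 of 44 higher and 10 lower around a median of 0.47, and the kanamycin pair had 7 higher and 18 lower. RABB1C, a Rab GTPase, stood at 186 FPKM in the wbc19 mutant and 45.6 FPKM in the control.

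Secondary and primary metabolism showed single enzymes rather than whole pathways past 2-fold. Of 20 glucosinolate genes 4 were higher and 2 lower. TGG1, the myrosinase that cleaves glucosinolates, stood at 573 FPKM in the wbc19 mutant and 206 FPKM in the control, and UGT74B1 and SOT16, which finish their synthesis, at 84.9 and 62.0 FPKM in the wbc19 mutant and 27.1 and 15.8 FPKM in the control. CYP83A1, at the entry of the aliphatic branch, stood at 6.67 FPKM in the wbc19 mutant and 53.1 FPKM in the control. Lignin-related genes were split in the same manner, with CYP98A3, coumarate hydroxylase, at 117 FPKM in the wbc19 mutant and 30.7 FPKM in the control and CCoAOMT1, a methyltransferase, at 93.4 FPKM in the wbc19 mutant and 234 FPKM in the control. In central metabolism cICDH, the cytosolic isocitrate dehydrogenase, stood at 349.5 FPKM in the wbc19 mutant and 75.9 FPKM in the control, and GDH2, glutamate dehydrogenase, at 280.4 FPKM in the wbc19 mutant and 88.5 FPKM in the control. Nitrogen assimilation had 2 of 14 higher and none lower, and sulfur and one-carbon metabolism 4 of 32 higher and 9 lower around a median of -0.49. APR2, which reduces activated sulfate, stood at 22.6 FPKM in the wbc19 mutant and 69.0 FPKM in the control.

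Histones and RNA-binding proteins had members far apart as well. Of 25 histone genes 4 were higher and 9 lower, around a median of -0.50, or -0.23 against their length class. The 2 H2A genes HTA9 (306 FPKM in the wbc19 mutant and 83.9 FPKM in the control), a variant of the H2A.Z type, and HTA6 (187 FPKM in the wbc19 mutant and 68.4 FPKM in the control) were higher. The lower ones included AT5G10400, at 1.12 FPKM in the wbc19 mutant and 80.1 FPKM in the control, and AT3G53730 and AT2G37470, both listed at 0 in the wbc19 mutant and at 79.7 and 90.1 FPKM in the control. Histone copies are near-identical and can share reads. Of 69 RNA-binding and splicing genes 19 were higher and 14 lower. GRP7, a clock-controlled RNA-binding protein, stood at 226 FPKM in the wbc19 mutant and 460 FPKM in the control, and the splicing factor RS40 at 108.6 FPKM in the wbc19 mutant and 3.79 FPKM in the control.

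Genes of unknown function formed the largest group, and 93 of 321 were higher and 96 lower, close to the background. AT5G24980 stood at 359 FPKM in the wbc19 mutant and was listed at 0 in the other 3 libraries. AT3G20362 stood at 530 FPKM in the wbc19 mutant and 64.1 FPKM in the control, and with kanamycin at 50.5 FPKM in the wbc19 mutant and 6.22 FPKM in the control. AT2G20820 was listed at 0 in the wbc19 mutant and stood at 162 FPKM in the control.

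The pair of kanamycin libraries shares no library with this comparison, although all 4 libraries entered the mean that selects members. Of the 919 entries higher without kanamycin 229 were higher there too (24.9%) and 276 were lower (30.0%), beside 20.7% higher and 28.4% lower of all members. Of the 943 lower ones 316 were lower there too (33.5%) and 206 were higher (21.8%). The 1840 within 2-fold gave 18.1% higher and 24.9% lower in that pair. Most calls without kanamycin were thus not repeated in direction with it. The deeper library was the wbc19 mutant without kanamycin and the control with it. Whether the change reflects the treatment, library depth, the share of reads that mapped or the error of single libraries cannot be told apart. Of 3311 nuclear protein-coding members 852 were higher and 782 lower without kanamycin, and 636 were higher and 950 lower with it. The overlap expected of unrelated pairs was not computed. In both pairs 214 of these genes were higher and 269 lower, of which 141 and 166 were above 0 in all 4 libraries.

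A few of these genes, chosen after their values were seen, lay far apart in both pairs. ATHB13, a homeodomain leucine zipper factor, stood at 38.3 FPKM in the wbc19 mutant and 0.949 FPKM in the control, and with kanamycin at 51.1 FPKM in the wbc19 mutant and 6.11 FPKM in the control. AT5G18940, a Mo25-family protein related to kinase scaffolds, stood at 113 FPKM in the wbc19 mutant and 3.43 FPKM in the control, and with kanamycin at 25.7 FPKM in the wbc19 mutant and 2.37 FPKM in the control. On the lower side DRH1, a DEAD-box RNA helicase, stood at 0.464 FPKM in the wbc19 mutant and 43.3 FPKM in the control, and with kanamycin at 0.202 FPKM in the wbc19 mutant and 52.5 FPKM in the control. PYL4, an abscisic acid receptor, stood at 5.00 FPKM in the wbc19 mutant and 54.4 FPKM in the control, and with kanamycin at 2.90 FPKM in the wbc19 mutant and 227 FPKM in the control. AZI1, which primes systemic defence, stood at 23.4 FPKM in the wbc19 mutant and 170 FPKM in the control, and with kanamycin at 6.76 FPKM in the wbc19 mutant and 56.0 FPKM in the control. TOM5, of the mitochondrial import pore, stood at 6.89 FPKM in the wbc19 mutant and 54.2 FPKM in the control, and with kanamycin at 17.6 FPKM in the wbc19 mutant and 134 FPKM in the control. In each of these genes both wbc19 mutant libraries lay on the same side of both control libraries. This follows largely from their choice as genes past 2-fold in both pairs and is no independent evidence.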

How the data were processed

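Poly(A) RNA of 4 seedling samples was cut to 25 to 45 bases, amplified by PCR with no molecular identifiers and read from a single end, as 1 library per condition. The deposited FPKM values were computed by the authors with Cuffdiff 1.3.0 after TopHat2 2.0.5 (alignment, TAIR10) and Cufflinks 2.0.2 (assembly), per the submitters' processing notes and the paper's methods; the file headers call them rpkm. The deposited columns of the authors' own comparisons, with fold changes, p-values and q-values, were not used. Of 33624 rows, 7 without a value and 78 whose repeated values differed were left out, and 27 values written as 0.01 were taken as 0.

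The difference was the log2 of FPKM plus 1 in the wbc19 mutant over the same in the control, and 2-fold was a rule of size without a test. Groups were found by words in the description column, which was not used for 1060 entries. Members, groups and lists were chosen with earlier results of these data known. Named are the 10 genes in each direction with the largest difference in FPKM among those past 2-fold, up to 4 most abundant members of each group and up to 3 in each direction with the largest difference past 2-fold, and every gene of the lists; other genes are named as chosen after their values were seen. Library depth was estimated from the smallest steps between FPKM values with 200 bases subtracted from each length: 1 read over 1000 effective bases was worth 0.755 FPKM in the wbc19 mutant and 1.23 FPKM in the control, and 77.5% and 69.5% of low values lay within 0.2 of whole reads. Exact Poisson intervals at 95% cover counting error only. Coordinates, lengths and promoters are from RefSeq's TAIR10.1 annotation, which matched 3493 of 3702 members and has the nuclear chromosomes of TAIR10. Alternatives were pseudocounts of 0.1 and 5, limits of 10 and 50 FPKM, the mean over the 2 compared libraries, 3 rescalings, and genes at 0 left out. Restriction to nuclear protein-coding genes and the length-class comparison were chosen after seeing the data. Python 3.11.15, numpy 2.4.6, pandas 2.3.3, scipy 1.17.1 and matplotlib 3.10.9 were used.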

Additional observations from a re-analysis of the deposited data

How the results depend on the processing

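With 1 library a side no result has an error between plants, and counts depend on the limit of mean FPKM: at 10 FPKM 1674 of 6515 entries were higher in the wbc19 mutant and 2063 lower, and at 50 FPKM 287 of 1541 were higher and 326 lower. The groups with a median at least 0.4 from that of all fell to 9 at 10 FPKM, against 18. Choosing members by the mean over the 2 compared libraries gave 1165 higher and 755 lower, so that 60.7% of calls were higher in place of 49.4%, and 57.3% were with genes at 0 left out (845 higher and 630 lower). Upper-quartile scaling, a shift of 0.15 in log2 FPKM and of 0.10 in the median of all members, gave 1035 higher and 851 lower. Relative to all members, the medians of 5 of these 18 groups changed sign under an alternative, as did those of 17 of the 32 groups nearer to all members. The 5 came as follows: glutathione transferases to -0.046 and pectin enzymes and cellulose synthases to -0.39 at 10 FPKM; chlorophyll synthesis to 0.58, ferredoxins to 0.62 and proton and calcium pumps to 0.12 at 50 FPKM, and the pumps to 0.19 with genes at 0 left out. The cause was not tested beyond the change of members. Of 497 group medians under alternatives 457 stayed within 0.25. These medians are relative to all members, so a rescaling, which shifts all members nearly alike, could hardly move them. The share that stayed is thus no test of the rescalings. Protein kinases, for example, stood at 0.62 in the main setting and 0.67 with upper-quartile scaling, but at 0.08 with a limit of 10 FPKM. Cytosolic ribosomal proteins lay from -0.77 to -0.42. No paired analysis was possible because each condition has 1 library and the labels give no replicate numbers shared between groups.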

Other observations

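Some groups were not described above. Of 18 proton and calcium pump genes 3 were higher and 7 lower in the wbc19 mutant, and the subunits of the vacuolar proton pump, which acidifies the vacuole, did not move together. The catalytic subunit VHA-A stood at 198 FPKM in the wbc19 mutant and 97.5 FPKM in the control, and TUF, subunit E, at 203.5 FPKM in the wbc19 mutant and 91.6 FPKM in the control. VAB3, a regulatory subunit, stood at 12.5 FPKM in the wbc19 mutant and 57.2 FPKM in the control, and the subunit F gene AT4G02620 was listed at 0 in the wbc19 mutant and stood at 76.7 FPKM in the control. AT4G02620 was likewise listed at 0 in the wbc19 mutant + kanamycin and stood at 48.6 FPKM in the control + kanamycin.

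Of 8 ABC transporter genes, the superfamily of WBC19, 1 was higher and 2 lower. ABCB28 stood at 53.7 FPKM in the wbc19 mutant and 8.499 FPKM in the control. ABCF1 was listed at 0 in the wbc19 mutant and stood at 27.3 FPKM in the control, and ABCI20 was listed at 0 in the wbc19 mutant and stood at 11.0 FPKM in the control. Of 17 aquaporin genes, which carry water across membranes, 2 were higher and 3 lower. PIP2A, of the plasma membrane, stood at 427 FPKM in the wbc19 mutant and 235 FPKM in the control, within 2-fold, and TIP2;2, of the vacuole, at 16.4 FPKM in the wbc19 mutant and 80.5 FPKM in the control. PDF1.2c, a defensin, stood at 184 FPKM in the wbc19 mutant and was listed at 0 in the other 3 libraries, among 64 defence genes of which 10 were higher and 14 lower.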
